A study of Mus musculus with 6 samples.

Results

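Hair keratins, the keratin-associated proteins (KAPs) that surround them, trichohyalin (Tchh) and the enzyme that modifies it (Padi3) were examined in bulge epithelial cells of mouse vibrissa follicles cultured with and without EGF. The members were the genes whose symbol was Krtap followed by a digit, together with 22 named genes of the hair shaft and its sheath, as far as the array had a probe set listed with that symbol alone. The rule found 59 genes of 18193, of which 38 encoded KAPs and 21 were keratins, Tchh or Padi3. Krt85 had no such probe set and was not analysed here. Where a gene had several probe sets (5 members did), the brightest was read.

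The cells were microdissected from whiskers of mice of 7 to 8 weeks, suspended in atelocollagen gel at 1% and cultured for 6 days. NFFSE medium held EGF at 50 ng/ml. NFFS medium lacked EGF, and both media held Noggin, FGF-7, FGF-10 and the hedgehog agonist SAG at 50 ng/ml each. The experiment was repeated 3 times, the cells of each repeat being divided between the media, and gave 3 NFFSE and 3 NFFS arrays. All cells of the bulge region were taken, so that a gel could hold cells of the niche as well as stem cells. No fresh hair shaft or matrix was measured beside these cultures.

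A hair shaft is built of type I and type II keratins, which pair into filaments in the cortex and cuticle, and of KAPs, small proteins rich in cysteine or in glycine and tyrosine that crosslink those filaments. The inner root sheath, which moulds the growing shaft, uses its own keratins and trichohyalin, whose arginines are converted to citrulline by Padi3. In the follicle these genes are switched on in matrix cells that have left the stem cell compartment and differentiate, and bulge cells are not known for them. The factors Hoxc13, Foxn1, Lef1 and Gata3 are known regulators of the shaft and sheath in mice.

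To show what lies before the start sites of the genes that the results turn on, the 250 bases upstream were read from RefSeq for GRCm38.p6, in which 52 of the 59 members had an entry. Krt33a, Krt35, Krt81, Krt83, Krt86, Krtap12-1 and Krtap7-1 did not match. Given here are Krtap17-1 (chr11:99993995-99994244, minus strand), Krt28 (chr11:99374904-99375153, minus strand), Krtap5-1 (chr7:142297135-142297384, minus strand) and Tchh (chr3:93442080-93442329, plus strand), which passed the test between media, and Krtap3-1 (chr11:99566631-99566880, minus strand), which lay just outside it. Each is written 5′ to 3′ on the strand of the gene and ends at the base before the start site. Capitals mark the TATA box (TATAAA), the core of LEF/TCF sites (CTTTGA or CTTTGT, or TCAAAG or ACAAAG where it lies on the other strand) and a motif of posterior HOX factors (TTTATG, or CATAAA on the other strand).
Krtap17-1: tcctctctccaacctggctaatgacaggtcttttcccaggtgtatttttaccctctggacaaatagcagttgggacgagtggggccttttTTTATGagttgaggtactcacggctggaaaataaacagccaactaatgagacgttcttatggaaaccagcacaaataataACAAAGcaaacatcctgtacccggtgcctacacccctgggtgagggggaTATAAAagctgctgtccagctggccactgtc
Krt28: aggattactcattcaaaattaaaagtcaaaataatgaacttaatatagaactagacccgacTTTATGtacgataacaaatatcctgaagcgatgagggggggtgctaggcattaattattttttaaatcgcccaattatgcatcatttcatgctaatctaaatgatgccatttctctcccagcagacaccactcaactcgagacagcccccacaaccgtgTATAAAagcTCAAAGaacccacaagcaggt
Krtap5-1: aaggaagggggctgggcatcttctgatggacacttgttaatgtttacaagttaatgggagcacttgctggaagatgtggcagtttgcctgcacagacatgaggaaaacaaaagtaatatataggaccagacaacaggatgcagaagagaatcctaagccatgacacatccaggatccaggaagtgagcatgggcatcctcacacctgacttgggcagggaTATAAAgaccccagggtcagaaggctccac
Tchh: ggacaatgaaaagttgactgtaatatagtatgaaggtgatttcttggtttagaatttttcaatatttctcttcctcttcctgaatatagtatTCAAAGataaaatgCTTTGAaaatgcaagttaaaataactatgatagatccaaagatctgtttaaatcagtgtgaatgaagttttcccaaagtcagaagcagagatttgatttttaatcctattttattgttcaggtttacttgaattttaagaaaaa
Krtap3-1: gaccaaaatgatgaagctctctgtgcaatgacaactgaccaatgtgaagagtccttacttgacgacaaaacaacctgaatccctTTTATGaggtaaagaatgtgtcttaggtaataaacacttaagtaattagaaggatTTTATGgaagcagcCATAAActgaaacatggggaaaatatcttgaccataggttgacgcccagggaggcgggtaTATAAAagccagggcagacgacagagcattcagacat
The motifs were chosen after the sequences had been read. TATAAA, searched on the gene's strand, stood in 38 of the 52 members' windows (73.1%) and in 7.59% of the 32851 windows of the table. TTTATG, searched on both strands, stood in 18 (34.6%) and in 10.8% of all windows. CTTTGA or CTTTGT, on both strands, stood in 27 (51.9%) and in 27.6% of all windows. No matches of different motifs overlapped in the members. The 27 matches of TTTATG in members began between 34 and 231 bases before the start, at 160 in Krtap17-1. Among the keratins they began at 158 in Krt31, 158 in Krt32, 159 in Krt33b, 154 in Krt34 and 189 in Krt28, whereas Krt82 had matches at 226, 197 and 94 and Krt84 at 231, 223, 96, 65 and 34. A match is a run of letters and not a measured site.

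Few of these genes, most of them low in signal, passed the test between the media. Of the 59 members, 5 passed the test (8.47%), against 26.2% of all genes (limma with Benjamini-Hochberg adjustment over all genes, threshold 0.05). Tchh and Krt81 were higher in NFFSE, where 11% of all genes were called higher. Krtap17-1, Krt28 and Krtap5-1 were lower in NFFSE, where 15.2% of all genes were called lower. At an unadjusted p below 0.05, 10 members passed (16.9%), against 35.6% of all genes. The signals of the media did not overlap for 17 members (28.8%), of which 10 were higher and 7 lower in NFFSE, against 40.5% of all genes. Of these 17, Krt25, Krt33a and Krtap19-2 were at background (defined below) on all 6 arrays. Krt25 was also among the members with an unadjusted p below 0.05. The median log2 difference, NFFSE minus NFFS, was 0.23 over the members and -0.011 over all genes. With 16 added to each signal the members' median was 0.11. With a floor at background it was 0, as it was over all genes. The split of calls depended on the scaling. With arrays centered on their medians, 16% of all genes were higher and 9.81% lower in NFFSE, and 5 members were higher and 3 lower.

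Many members had arrays at background. A signal at or under 22.7, the highest value of the control probe sets for a bacterial transcript (TrpnX), was called background. By that rule 13 members were above background on all 6 arrays, 13 on all 3 arrays of 1 medium only, and 15 on some arrays of either medium. The remaining 18 (30.5%) were at background throughout, against 9.40% of all genes. Of the 13 members above background on all arrays, 2 were called, against 35.7% of the genes with such signals. Of all genes at background on 1 array or more, 7.67% were called. Most members were such genes, among them the called Krtap17-1, Krt28 and Krtap5-1. The share of 8.47% covers the 13 members above background on all arrays too, so it is not matched to 7.67%. The median standard error of the log2 difference was 0.68 for the members and 0.26 for all genes. The number of members above background was 32, 24 and 31 on the NFFSE arrays, against 23, 29 and 30 on the NFFS arrays, so that neither medium had more of them on every array.

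**Figure D1:**
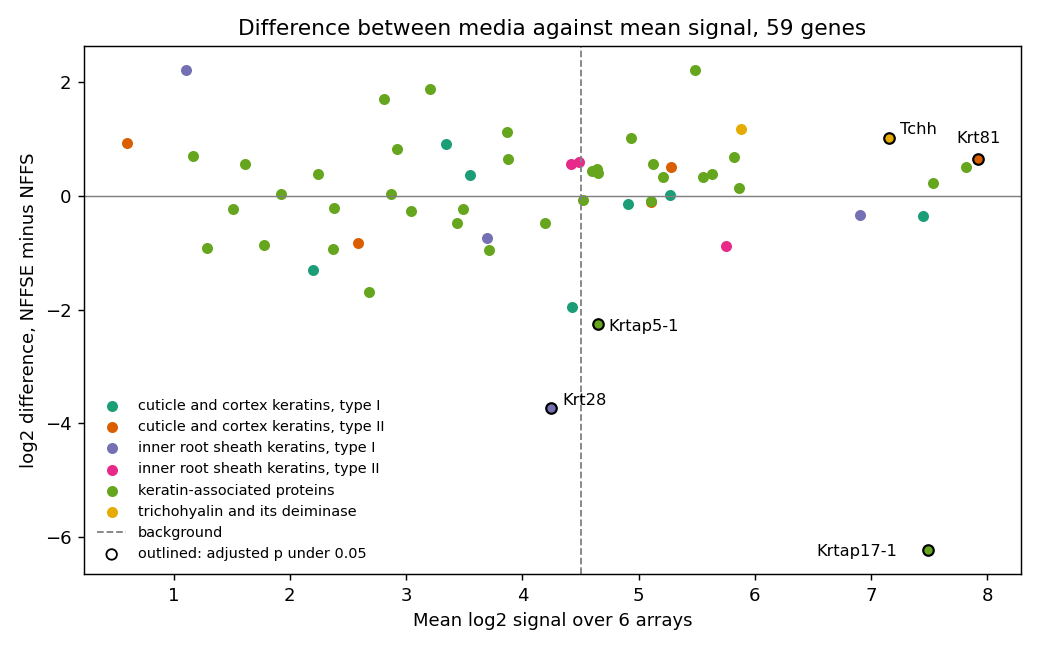
The log2 difference between media (NFFSE minus NFFS, vertical axis) is plotted against the mean log2 signal over 6 arrays (horizontal axis) for the 59 genes, 1 point a gene, colored by class, with called genes outlined and background as a dashed line. Krtap17-1 stands alone at -6.23, and the 54 genes that were not called lie between -1.96 and 2.22.

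Krtap17-1 (chr11:99993232-99993994), which encodes an ultrahigh sulfur KAP known from the cuticle of the human hair shaft, was the member with the largest difference. Its signals were 13.8, 28.0 and 23.1 on the NFFSE arrays, against 1465, 1441 and 1802 on the NFFS arrays. All 3 NFFSE arrays lay at or close to background, 1 of them under it, and the groups did not overlap. Its signal averaged 21.7 ± 7.21 in NFFSE and 1569 ± 202 in NFFS (SD, n = 3 each). The log2 difference was -6.23 (SE 0.28; limma, adjusted p = 5.7e-07), and since an NFFSE array was at background the fold is given as a bound, at least 63.7-fold lower in NFFSE. It was called under all 16 other settings tried, with differences between -6.45 and -5.41. Whether fewer cells carried this transcript or each cell held less of it cannot be told apart in RNA of whole cultures.

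The genes beside Krtap17-1 did not share its size of change. It lies in the cluster of type I hair keratins and KAPs on chromosome 11, which held 21 members, 10 of them KAPs. Of these 21, 2 were called, against 26.2% of all genes. Both, Krtap17-1 and Krt28, were lower in NFFSE, and 6 of the 21 were at background on all arrays. The nearest measured member, Krt33a, started 17.2 kb beyond the end of Krtap17-1 and was at background on all 6 arrays. Krt33b, Krt34, Krt31, Krt32, Krt35 and Krt36 on that side and Krtap31-1 on the other were not called. Krtap31-1 had signals of 61.4, 89.8 and 67.4 in NFFSE, against 30.0, 50.8 and 58.2 in NFFS. These did not overlap and ran the opposite way to Krtap17-1, but the log2 difference of 0.69 (SE 0.39) did not pass (limma, adjusted p = 0.24). Krtap16-1, Krtap29-1, Krtap9-5 and Krtap31-2, which also lie within this stretch, were not analysed here.

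**Figure D2:**
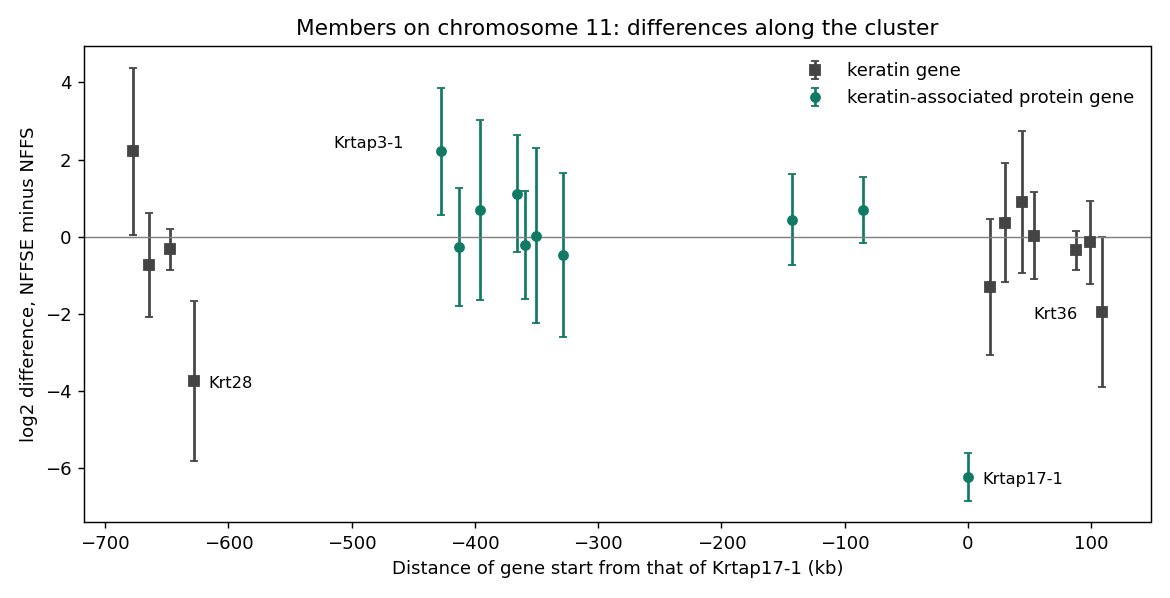
The log2 difference (NFFSE minus NFFS, vertical axis) with its 95% confidence interval from limma is plotted for the 21 genes on chromosome 11 against the distance of the gene start from that of Krtap17-1 in kb (horizontal axis), with squares for keratin genes and circles for KAP genes. Krtap17-1 and Krt28 are low at -6.23 and -3.74, and of the other 20 genes only Krt28 has an interval that reaches that of Krtap17-1.

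No other KAP had a difference of that size. Of the 38 KAPs, 2 were called (5.26%), both lower in NFFSE, against 26.2% of all genes. Of genes at background on 1 array or more, 7.67% were called, and 14 of the KAPs were at background on all arrays. Their median log2 difference was 0.28. By class, 13 high glycine-tyrosine KAPs (families 6, 7, 8, 19, 21 and 22) had 0 called and a median of 0.33. Of these 13, 6 were at background on all arrays and 3 above it on all. The 12 ultrahigh sulfur KAPs (families 4, 5, 9 and 17) had 2 lower and a median of 0.41, so that Krtap17-1 was far from the middle of its own class. Of these 12, 0 were above background on all 6 arrays, so that median rests largely on signals near or under background. The remaining 13 had 0 called and a median of 0.15, with 4 at background on all arrays. The 20 KAPs on chromosome 16 had 0 called, and 9 of them were at background on all arrays. At an unadjusted p below 0.05, 4 KAPs passed (10.5%, against 35.6% of all genes), namely Krtap17-1, Krtap5-1, Krtap3-1 and Krtap12-1, and the methods' t-test after adjustment called Krtap17-1 alone. KAPs of a family are near copies of each other, and their probe sets may take up signal from more than 1 gene.

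Krtap5-1 (chr7:142296377-142297134), of a family known from the human hair cuticle, had signals of 13.1, 4.73 and 24.3 in NFFSE, against 47.4, 48.8 and 71.05 in NFFS. The groups did not overlap, and 2 of the 3 NFFSE arrays were at background. The log2 difference was -2.26 (SE 0.64; limma, adjusted p = 0.025), at least 2.36-fold lower in NFFSE. This value came from a probe set that may cross-hybridize, as its suffix _x_at says. The gene's other probe set gave 29.6, 3.42 and 13.1 in NFFSE, against 4.55, 44.3 and 52.8 in NFFS, which overlapped, and with it alone the log2 difference was -1.003 and was not called (adjusted p = 0.57). The call was also lost without NFFSE replicate 2 (log2 difference -1.62, adjusted p = 0.059) and without any 1 of the 3 NFFS replicates (adjusted p of 0.062, 0.054 and 0.096 without replicates 1, 2 and 3). Further losses came without the intensity trend, in the methods' t-test and where both probe sets were averaged.

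Krtap3-1, a high sulfur KAP of the cortex, lay just outside the threshold in the opposite direction. It gave 111, 85.6 and 94.3 in NFFSE, against 6.00, 22.6 and 66.7 in NFFS. The 3 NFFSE arrays were above all NFFS arrays, which differed widely among themselves, and 2 of the NFFS arrays were at background. The log2 difference was 2.21 (SE 0.73; limma, adjusted p = 0.0503). With the replicate number as a block it passed (adjusted p = 0.029), as it did without NFFS replicate 3 (log2 difference 3.05, adjusted p = 0.0067) and under 5 further settings. Without NFFS replicate 1 the log2 difference was 1.31 (adjusted p = 0.098), and without any 1 of the other 4 arrays adjusted p lay between 0.088 and 0.13. In the sequence printed above, TTTATG stood before its start site more than once, as it did for Krt82, Krt84 and Krtap26-1, which were not called. Any part of this motif in the signals was not tested.

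Of the 8 KAPs above background on all 6 arrays, 0 were called in limma, and 1, Krtap12-1, had an unadjusted p below 0.05. Over all genes with such signals 35.7% were called. Krtap12-1 gave 217, 252 and 354 in NFFSE, against 188, 215 and 167 in NFFS. These did not overlap, and the log2 difference was 0.51 (SE 0.22; limma, adjusted p = 0.14). With arrays centered on their medians it passed (log2 difference 0.71, adjusted p = 0.036). It turned to -0.23 where both of its probe sets were averaged, the second being at or near background. Krtap13-1 did not overlap either, with 30.6, 49.7 and 50.03 in NFFSE, against 29.7, 30.3 and 26.1 in NFFS (log2 difference 0.57, adjusted p = 0.40). Krtap28-13 gave 38.4, 41.1 and 52.2 in NFFSE, against 14.9, 19.9 and 33.5 in NFFS, with no overlap and a log2 difference of 1.02 (limma, adjusted p = 0.16). It was above background on all arrays of NFFSE only. Krtap10-4 and Krtap26-1 overlapped between the media, with log2 differences of 0.23 and 0.15 and 95% intervals of -0.36 to 0.82 and -0.73 to 1.02.

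**Figure D3:**
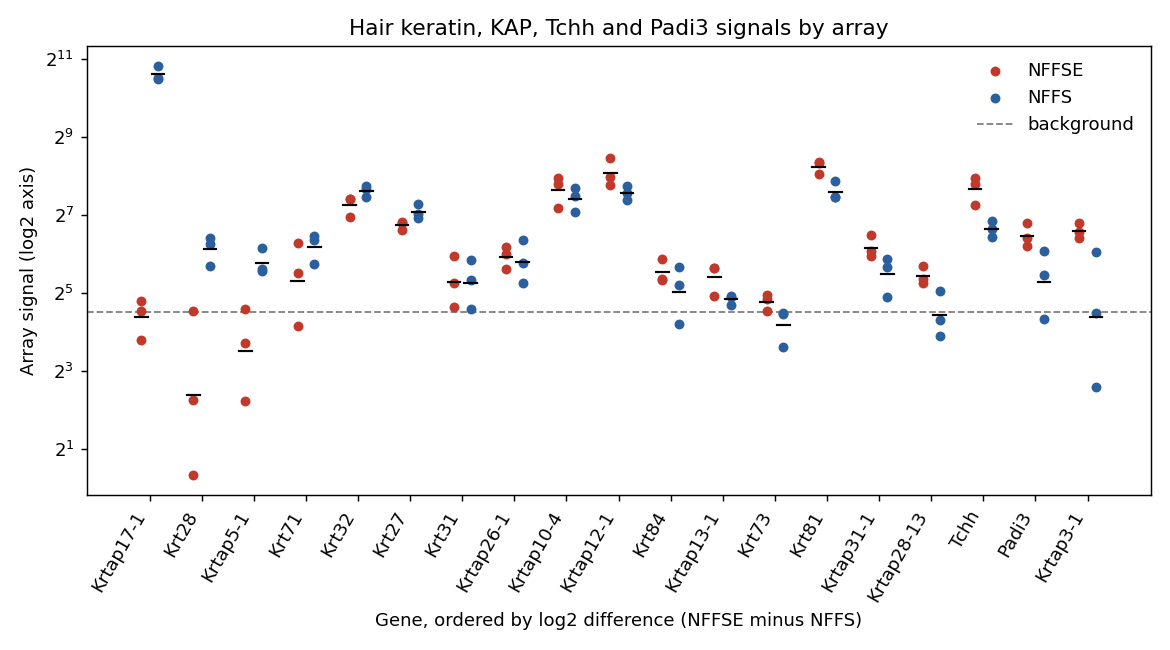
Signals on each array (vertical axis, log2 scale) are plotted for the 19 members named by rule, ordered by their log2 difference, with NFFSE in red left of NFFS in blue, bars at the mean of the log2 signals and background as a dashed line. The NFFS arrays of Krtap17-1 lie between 1441 and 1802 and its NFFSE arrays between 13.8 and 28.0.

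Among the cuticle and cortex keratins, 1 of the 5 measured type II keratins was called and 0 of the 7 type I keratins, of which 1, Krt36, had an unadjusted p below 0.05 in limma. The share called over all genes was 26.2%. Krt81 (chr15:101459061-101463765), a type II keratin of the cortex, gave 264, 323 and 327 in NFFSE, against 176, 176 and 233 in NFFS. The groups did not overlap. Krt81 was 1.57-fold higher in NFFSE (log2 difference 0.65, SE 0.19; limma, adjusted p = 0.033). The call was lost without NFFSE replicate 2 (adjusted p = 0.12), NFFSE replicate 3 (0.10), NFFS replicate 1 (0.092) or NFFS replicate 2 (0.075). It was also lost in limma with a floor at background (0.055) or without the intensity trend (0.064), and in the methods' t-test (0.081). Krt81, Krt83 and Krt86 are close in sequence, and their probe sets may share signal. Krt84 overlapped, with 41.3, 59.1 and 40.6 in NFFSE, against 18.6, 50.5 and 36.7 in NFFS.

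Of the type I keratins, Krt31, of the cortex, and Krt32, of the cuticle, were above background on all arrays. Krt31 gave 38.1, 25.04 and 62.0 in NFFSE, against 40.4, 58.0 and 24.0 in NFFS, a log2 difference of 0.02 with a 95% interval of -1.11 to 1.16. Krt32 gave 123, 172 and 171 in NFFSE, against 202, 216 and 176 in NFFS. Its NFFSE arrays were all below its NFFS arrays, by a margin within the error of the fit (log2 difference -0.36, SE 0.22; limma, adjusted p = 0.29). Krt36 had 3.88, 6.44 and 52.1 in NFFSE, against 43.9, 43.9 and 39.8 in NFFS, and its log2 difference of -1.96 (adjusted p = 0.14) passed only without NFFSE replicate 3 (adjusted p = 0.0064), the array that stood above the NFFS arrays.

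In the inner root sheath keratins, 1 of 4 type I keratins was called, lower in NFFSE, and 0 of 3 type II keratins, of which 0 had an unadjusted p below 0.05 in limma. Over all genes 15.2% were called lower and 26.2% in either direction. Krt28 (chr11:99365007-99374903), a type I keratin of the inner root sheath, gave 23.3, 1.26 and 4.79 in NFFSE, against 85.4, 51.5 and 76.1 in NFFS. The groups did not overlap, and 2 of 3 NFFSE arrays were at background. The log2 difference was -3.74 (SE 0.93; limma, adjusted p = 0.014), at least 3.03-fold lower in NFFSE. The size of the fitted difference rests on signals under background, and a floor at 22.7 gave -1.60, still called. The call was lost without NFFS replicate 1 (adjusted p = 0.055). It was also lost in limma without the intensity trend (adjusted p = 0.069) and in the methods' t-test (adjusted p = 0.13). The difference was -2.72 without NFFSE replicate 2 and -4.82 without NFFSE replicate 1.

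Krt27, a type I sheath keratin of the same gene group, gave 112, 112 and 97.6 in NFFSE, against 156, 129 and 121 in NFFS. The groups did not overlap, but the log2 difference of -0.33 (SE 0.24) did not pass (limma, adjusted p = 0.37). Krt71, a type II keratin of the inner root sheath, overlapped, with 77.5, 17.7 and 45.5 in NFFSE, against 81.7, 89.0 and 53.8 in NFFS (adjusted p = 0.28). Krt73, of the sheath cuticle, gave 30.8, 28.9 and 23.2 in NFFSE, against 22.5, 21.9 and 12.3 in NFFS, with no overlap and all values near or under background (log2 difference 0.59, adjusted p = 0.47). Krt25, a further sheath keratin, was at background on all arrays.

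Trichohyalin, which fills the cells of the inner root sheath and the medulla, was higher in NFFSE. Tchh (chr3:93442330-93449077) gave 221, 154 and 246 in NFFSE, against 116, 101 and 86.4 in NFFS. The groups did not overlap, and the signal was 2.03-fold higher in NFFSE (log2 difference 1.02, SE 0.26; limma, adjusted p = 0.015). The call was lost without NFFSE replicate 1 (adjusted p = 0.055) or NFFSE replicate 3 (adjusted p = 0.062). It was also lost in the methods' t-test (adjusted p = 0.065). Padi3, which citrullinates trichohyalin, gave 85.6, 73.6 and 111 in NFFSE, against 20.2, 44.2 and 67.1 in NFFS. These did not overlap, and the log2 difference of 1.18 (SE 0.47) did not pass (limma, adjusted p = 0.094). Without NFFS replicate 3 it did (adjusted p = 0.042), and without any 1 of the other 5 arrays it did not, with the smallest difference, 0.71 (adjusted p = 0.25), without NFFS replicate 1. With arrays centered on their medians or quantile normalized it passed (adjusted p of 0.043 and 0.045).

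**Figure D4:**
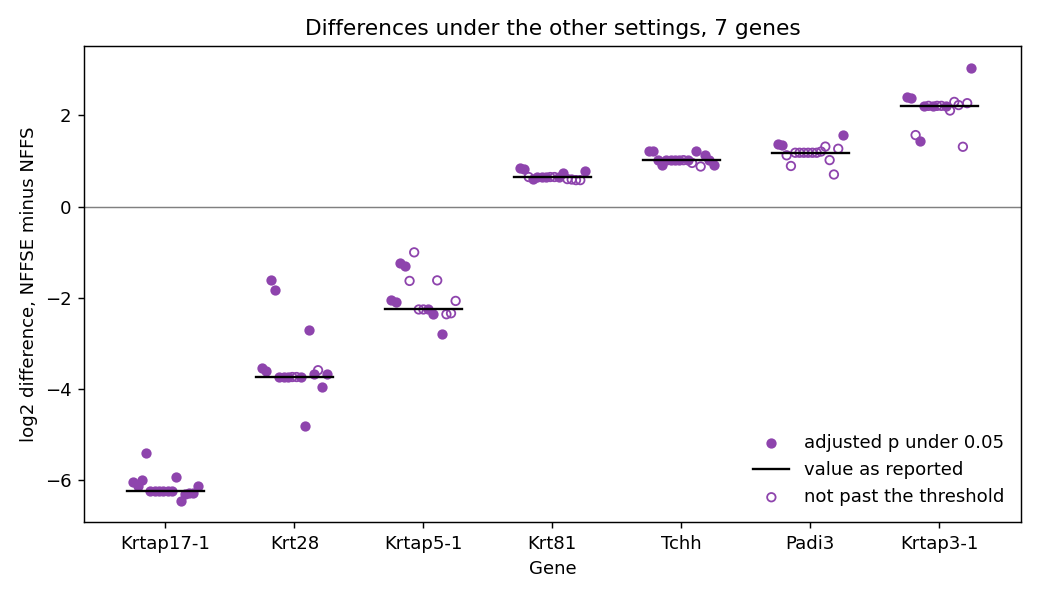
Log2 differences (NFFSE minus NFFS, vertical axis) are shown for 7 genes under the other settings tried, 1 point a setting, filled where the adjusted p was under 0.05, with a bar at the value reported. Krtap17-1 is filled throughout, between -6.45 and -5.41, and each of the other genes is open in 3 settings or more.

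Of 13 measured transcription factors of the hair shaft, 2 were higher and 8 lower in NFFSE. That was 76.9% called, against 26.2% of all genes and 35.7% of genes above background on all 6 arrays. The list was chosen with earlier results of these data known, so its share is not independent of them. Hoxc13, which binds hair keratin promoters in humans, gave 137, 121 and 121 in NFFSE, against 906, 685 and 689 in NFFS (log2 difference -2.58; limma, adjusted p = 5.7e-06). Lef1, a WNT effector of the matrix and precortex, gave 21.6, 26.9 and 27.6 in NFFSE, against 461, 274 and 212 in NFFS (log2 difference -3.57; limma, adjusted p = 4.9e-05). Vdr, the vitamin D receptor needed for hair cycling, was 5.86-fold lower in NFFSE (limma, adjusted p = 4.1e-06). Ovol1, a differentiation factor of epidermis and hair, was 13.9-fold higher in NFFSE (limma, adjusted p = 1.5e-06). Prdm1, Trps1, Cux1, Gata3 and Msx2 were the other factors lower in NFFSE, and Foxq1 the other one higher. Foxn1 had a log2 difference of 1.01 and was not called (adjusted p = 0.49). Whether the levels of these factors had a part in the members' values was not tested.

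Of 17 measured genes for crosslinking and other structures of hair and its sheaths, 8 were higher and 1 lower in NFFSE. The share called was 52.9%, against 26.2% of all genes and 35.7% of genes above background on all 6 arrays. This list, too, was chosen with earlier results of these data known. Krt6b, a keratin of the companion layer and of activated epidermis, was 10.1-fold higher, and the desmosomal cadherin Dsc2 was 8.26-fold higher. Tgm1, a transglutaminase that crosslinks the envelope of cornified cells, was 5.84-fold higher, and Selenbp1 was 4.76-fold higher. Adjusted p in limma lay between 1.6e-05 and 0.00011 for these 4 genes. Several of the list are also expressed in epidermis. Tgm5 was the gene that was lower, by 0.96 on the log2 scale.

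The labelled cell type was checked on its markers. All 10 bulge and basal epithelial markers were above background on every array, 4 higher and 4 lower in NFFSE. The share called over all genes was 26.2%, and over genes above background on all 6 arrays 35.7%. Cd34, of the bulge, was 3.93-fold higher in NFFSE, and Itga6, Krt14 and Epcam were 2.42-fold, 1.77-fold and 1.57-fold higher. Krt15, Lhx2 and Tcf7l1, also bulge markers, were 3.94-fold, 3.64-fold and 2.99-fold lower, and Sox9 was 2.27-fold lower. Of 8 fibroblast and dermal papilla markers, 0 were higher and 3 lower in NFFSE (Thy1, Col1a2 and Vim), and their summed signal was 487 to 502 in NFFSE and 691 to 906 in NFFS. Of 6 melanocyte markers, 0 were called, with sums of 355 to 559 in NFFSE and 431 to 567 in NFFS, and Mlana was at background throughout. Of 5 leukocyte and endothelial markers, 0 were called, with sums of 297 to 375 in NFFSE and 298 to 408 in NFFS. In both of these lists 0 genes had an unadjusted p below 0.05 in limma. RNA integrity, read as the log2 difference between the 3′ and 5′ probe sets of Gapdh, was -0.37 ± 0.011 in NFFSE and -0.62 ± 0.017 in NFFS (SD, n = 3 each). The same measure for Actb was 0.27 ± 0.019 in NFFSE and 0.33 ± 0.059 in NFFS, with arrays that overlapped. The part of fibroblast RNA and of RNA integrity in the members' differences was not tested.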

How the data were processed

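Labeled cRNA was hybridized to an Affymetrix mouse genome array, 1 array a culture. The authors deposited intensity values for 45101 probe sets, computed with MAS5 per the labels (its version was not given in the sources used) on a linear scale, each array scaled to 1 mean without the lowest and highest 2%. Only arrays' processed signals were used, so background correction could not be changed. Left out were 64 control probe sets, 932 probe sets with several symbols and 9160 not listed with a gene.

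For each of 18193 genes the probe set with the highest mean log2 signal was fitted in limma 3.58.1 (R 4.3.3; eBayes with intensity trend) with NFFS subtracted from NFFSE. Genes with a Benjamini-Hochberg adjusted p under 0.05, over the whole table, were called. The script was tested on simulated data. Folds are antilogs of the log2 differences. Where arrays of the dimmer medium were at background, the bound uses the higher of 22.7 and each array's signal. Number of arrays limits precision, and p-values cover only the spread between these 6 cultures.

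The members and lists were chosen with earlier results of these data known. Named are members that passed, members with no overlap that were above background on all arrays of a medium, the 10 brightest, the 2 brightest of each class, Tchh and Padi3, and up to 4 called genes of each related list. Krt25, Krt33a, Krtap19-2, Krt36, the neighbours of Krtap17-1 and further genes completing a count were named after their values were seen.

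The series design states that each repeat was divided between the media, so replicate numbers pair the arrays. The reported fit left this pairing out, and the replicate block took it in. Same-numbered arrays deviated together by correlations of 0.066, 0.042 and 0.037, each array correlating best with its own number. The alternatives were other scalings, treatments of low signals, a filter on dim genes, other choices of probe set, no intensity trend, the methods' t-test, the replicate block and leaving out each array.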

Additional observations from a re-analysis of the deposited data

How the results depend on the processing

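With arrays centered on their medians, the median difference of all genes was 0.19 in place of -0.011, 2916 genes were higher (16%) and 1784 lower (9.81%) in NFFSE, against 2002 and 2771 in the values reported, and 8 members were called (5 higher, 3 lower). Quantile normalization called 4 members higher, and a floor at background 1. Without the intensity trend, 1323 genes were higher, and 3 members were called, Krtap17-1 lower and Tchh and Krt25 higher. Krt25, at background on all arrays, was not called in the values reported (limma, adjusted p of 0.13 there and 0.048 without the trend). The methods' t-test called 2964 genes (1262 higher, 1702 lower) and 1 member, Krtap17-1, which was lower, so that 0 members were higher. With the replicate number as a block, 6 members were called, Krtap3-1 being added, and 5138 genes in all, and no other member's call changed. Leaving out 1 array gave 3 to 6 members called, 0 to 4 higher and 1 to 4 lower. The lowest total came without NFFS replicate 1 or 2, and 0 members were higher without NFFSE replicate 3. The direction turned for Krt31 (-0.31 without NFFSE replicate 3 and -0.31 without NFFS replicate 3, up to 0.34 without other arrays), Krtap12-1 (-0.23 with probe sets averaged) and Krtap26-1 (-0.12 without NFFS replicate 2, up to 0.42 without other arrays), and in none of these 4 cases was the gene called. The cause was not tested. Of the values of single named members under the alternatives, 21 lost the call, 11 gained it and 4 turned. The others kept direction and side of the threshold. Signals at background on all arrays were found for 18 members, so their differences lie among signals called background. Krt25, Krt33a and Krtap19-2 were among them, though their signals did not overlap between the media.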

Other observations

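Probe sets listed with several symbols, a member among them, numbered 6 and entered no test. For all 6 the signals of the media overlapped. The brightest of them, listed for Krtap9-1 with 3 other gene models, gave 42.4, 40.7 and 67.3 in NFFSE, against 54.8, 58.3 and 68.0 in NFFS. The probe set listed for Krtap6-1 with other gene models gave 34.8, 31.2 and 37.5 in NFFSE, against 17.3, 39.9 and 21.5 in NFFS.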
